A study of Homo sapiens with 15 samples.

Results

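The 4 HDM libraries of DiFi cells were compared with the 6 libraries of plate cells in the same miRNA count table. The libraries were taken by their labels: filtered HDM of HF6 and HF7, unfiltered HDM of HF6 and HF7, and cells of plates 1, 2 and 3 of HF6 and HF7. They are 10 of the 14 libraries in the table, out of 15 labelled samples. DiFi is an established human colorectal cancer cell line, and all groups carry the same tissue and cell line labels, with no treatment or genotype. The series was made to try culture conditions for collecting secreted carriers of small RNA. The labels do not spell out HDM, HF or the plate numbers, and they do not say how HDM was filtered. Filtered and unfiltered HDM of the same HF number may share a source, and the labels do not say that HF6 and HF7 are separate cultures, so the p-values reflect no more than the spread among these libraries. HDM medium without cells is not analysed here, so no level of miRNA that the medium itself may bring was set against the HDM values.

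A microRNA (miRNA) is a short RNA cut from 1 arm of a hairpin precursor, first by Drosha in the nucleus and then by Dicer in the cytoplasm, and loaded into an Argonaute protein. It pairs with target mRNAs mainly through its seed, bases 2 to 8, and lowers their translation and stability. Cells also release miRNAs, in vesicles and in non-vesicular particles such as supermeres, and the released set can differ from the set inside the cell. The sequences below are those the results turn on, as the deposited table gives them, 5′ to 3′ with the seed in capitals and T in place of U. Of the 522 miRNAs tested, 465 were found by name in RefSeq's miRNA table (GRCh38.p14), all with the same sequence. The first set was higher in HDM than in cells of every plate number.
miR-1247-5p: aCCCGTCCcgttcgtccccgga
miR-155-5p: tTAATGCTaatcgtgataggggtt
miR-552-3p: aACAGGTGactggttagacaa
miR-196a-5p: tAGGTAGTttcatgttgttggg
let-7b-5p: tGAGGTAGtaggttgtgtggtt
miR-23b-3p: aTCACATTgccagggattaccac
The second set was lower in HDM than in cells of every plate number.
miR-146a-5p: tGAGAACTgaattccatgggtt
miR-32-5p: tATTGCACattactaagttgca
miR-22-3p: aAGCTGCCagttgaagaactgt
miR-374a-5p: tTATAATAcaacctgataagtg
miR-429: tAATACTGtctggtaaaaccgt
miR-30e-5p: tGTAAACAtccttgactggaag
miR-215-5p: aTGACCTAtgaattgacagac
The third set shares a seed or nearly its whole sequence with a member of the first or second set and did not hold the same call against every plate number.
miR-374b-5p: aTATAATAcaacctgctaagtg
miR-23a-3p: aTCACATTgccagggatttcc
miR-200b-3p: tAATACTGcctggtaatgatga

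Library totals were 2479953 and 1712734 counts for filtered HDM of HF6 and HF7, and 2256525 and 205747 counts for unfiltered HDM. The plate libraries held between 1246503 and 4184909 counts. In the shallowest library, unfiltered HDM of HF7, an entry with no reads may have a level of up to 11.9 CPM, the TMM-normalised level of 3 counts (counting error only), against at most 2.52 CPM in the other libraries. Levels are TMM-normalised CPM, counts brought to a common library total after TMM factors have matched the bulk of the miRNAs between libraries. The table holds no spike-in, so a fold compares a miRNA with the rest of its library and not with the amount of RNA. A miRNA counted as called when edgeR's quasi-likelihood test gave a p, adjusted by Benjamini-Hochberg, under 0.05, and a call held against every plate number when it was made in the same direction against plates 1, 2 and 3 separately.

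HDM differed from plate cells in 226 of 522 miRNAs (43.3%), with 117 higher (22.4%) and 109 lower (20.9%). Against single plate numbers, 218 miRNAs were called against plate 1 (41.8%, with 20.1% higher), 165 against plate 2 (31.6%, 14.4% higher) and 175 against plate 3 (33.5%, 16.5% higher). The call held against every plate number for 61 miRNAs (11.7%), 27 higher (5.17%) and 34 lower (6.51%), and in 54 of these the 4 HDM libraries did not overlap the 6 plate libraries (10.3%). The 3 contrasts share the HDM libraries, so holding against all of them is not 3 separate observations. Of the 117 higher calls, 31 were called against plate 1 and no other plate, and of the 109 lower calls, 19 were. Filtered HDM alone gave 206 calls against plate cells (39.5%) and 69 that held against every plate number (13.2%). Unfiltered HDM alone gave 127 calls (24.3%) and 36 that held (6.9%), and 29 miRNAs held in both fractions (5.56%). Without the unfiltered HF6 library the count against plate cells was 146 and that of unfiltered HDM alone 54. Without the filtered HF6 library the counts were 116 against plate 3 and 120 for filtered HDM alone, and without plate 2 of HF6 the count against plate 2 was 106. The held count was 37 when the 2 cell pellets joined the fit, and all 37 were among the 61. With no scaling beyond the total count, the median log2 difference over all miRNAs was 0.15 instead of -0.02, and 65.4% of calls were higher instead of 51.8%. Then 75 calls held (14.4%), 52 higher and 23 lower, in place of the 27 higher and 34 lower above, so most held calls were increases under that scaling. They included all 27 of the higher miRNAs and 23 of the 34 lower ones. A fit with 2 groups only, chosen after seeing the data, gave 112 calls against plate cells.

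Among miRNAs at 100 CPM or more, the largest differences that held upward with no overlap were those of miR-1247-5p, miR-155-5p and miR-552-3p. miR-1247-5p, which lies at chr14:101560362-101560383 (GRCh38, minus strand) in an exon of the long non-coding RNA DIO3OS of the imprinted DIO3 region, had 247 and 275 CPM in filtered HDM and 315 and 179 CPM in unfiltered HDM, against 26.1 and 26.0 CPM in plate 1 cells, 33.4 and 33.2 CPM in plate 2 cells and 31.0 and 39.9 CPM in plate 3 cells. All HDM libraries were above all plate libraries, and filtered and unfiltered HDM overlapped. The fold was 8.26 (log2 3.05 ± 0.15, SE; adjusted p = 1.0e-12), and the log2 differences from plates 1, 2 and 3 were 3.32, 2.97 and 2.84. miR-155-5p, cut from an exon of MIR155HG at chr21:25573983-25574006 and known for its induction in activated leukocytes, had 219 and 247 CPM in filtered HDM and 208 and 255 CPM in unfiltered HDM, against 24.9 and 33.5 CPM in plate 1 cells, 91.6 and 107 CPM in plate 2 cells and 90.6 and 90.2 CPM in plate 3 cells. Here the plate numbers themselves were apart, with plate 1 lowest, and the log2 differences of HDM from plates 1, 2 and 3 were 2.98, 1.21 and 1.34 (adjusted p = 1.1e-09 against the plates together).

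Both arms of miR-552, a miRNA reported in colorectal tumours, were higher in HDM against every plate number. miR-552-3p, at chr1:34669614-34669634, averaged 150.1 ± 35.1 CPM in HDM and 48.8 ± 10.3 CPM in plate cells (SD, n = 4 and 6), a log2 difference of 1.58 ± 0.14 (adjusted p = 1.7e-08). miR-552-5p averaged 180.4 ± 19.5 CPM in HDM and 86.3 ± 19.1 CPM in plate cells, with log2 differences of 0.71, 1.21 and 1.35 from plates 1, 2 and 3. The miR-552-3p values of the filtered libraries, 162 and 192 CPM, lay above those of the unfiltered ones, 111 and 135 CPM, and both fractions were above all plates.

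The next 3 held increases came from arms that are usually the scarcer one of their hairpin. Over 138 hairpins with both arms tested, 11 of the scarcer arms and 6 of the other arms held upward, and 8 and 14 held downward. Against plate cells together, 36 of the scarcer arms and 35 of the other arms were called higher in HDM. miR-181a-2-3p, the partner of the lymphocyte regulator miR-181a, averaged 186 ± 29.8 CPM in HDM and 69.8 ± 14.3 CPM in plate cells and differed by 1.12, 1.48 and 1.49 on the log2 scale from plates 1, 2 and 3. miR-148a-5p, the partner of the DNMT1-targeting miR-148a-3p, averaged 237 ± 48.8 CPM in HDM and 106 ± 18.8 CPM in plate cells, with log2 differences of 1.49, 1.01 and 1.12. miR-29b-1-5p, the partner of collagen-repressing miR-29b, averaged 229.8 ± 15.7 CPM in HDM and 109.7 ± 33.8 CPM in plate cells, with log2 differences of 1.44, 0.60 and 1.32. All 3 were chosen for passing the test against every plate number with no overlap between HDM and plate libraries. These features are therefore no separate support. miR-500a-3p and miR-532-3p, from the miRNA cluster in an intron of the chloride channel gene CLCN5 on chromosome X, averaged 604 and 169 CPM in HDM, against 316 and 90.8 CPM in plate cells. Their differences were largest against plate 1, with log2 values of 1.77, 0.59 and 0.68 for miR-500a-3p and 1.49, 0.64 and 0.81 for miR-532-3p against plates 1, 2 and 3. The call of miR-532-3p against plate 2 was lost without the filtered HF6 library (adjusted p = 0.076), and those against plates 2 and 3 without the unfiltered HF6 library (adjusted p = 0.15 and 0.059) or with the 2 cell pellets in the edgeR fit (0.16 and 0.085). That of miR-500a-3p against plate 2 was lost without plate 2 of HF6 (adjusted p = 0.059). miR-500a-3p differs by at most 1 base, allowing a shifted end, from miR-501-3p and miR-502-3p, so reads may be split among them.

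miR-196a-5p, a miRNA of the HOX gene clusters that represses HOXB8, had 2588 and 2136 CPM in filtered HDM and 2124 and 1866 CPM in unfiltered HDM, against 677 and 593 CPM in plate 1 cells, 1405 and 1584 CPM in plate 2 cells and 1424 and 1289.5 CPM in plate 3 cells. The plates were again below HDM throughout, with plate 1 lowest, and the log2 differences were 1.78, 0.54 and 0.68. It differs from miR-196b-5p by 1 base, A12C counted from the 5′ end of miR-196a-5p. let-7b-5p, of the let-7 family that represses RAS, HMGA2 and LIN28 messages, had 6168 and 4946 CPM in filtered HDM and 5803 and 4591 CPM in unfiltered HDM, against 2812 and 2529 CPM in plate 1 cells, 2387 and 2939 CPM in plate 2 cells and 2826 and 3098 CPM in plate 3 cells. Its difference was nearly even across plate numbers, with log2 values of 1.01, 1.01 and 0.86 (adjusted p = 8.2e-07 against the plates together). miR-95-3p had levels of 1639.9 to 1703 CPM in HDM and 629 to 1195 CPM in plate cells. miR-23b-3p, miR-320a-3p and miR-423-5p also held upward, with log2 differences of 0.74 ± 0.10, 0.82 ± 0.10 and 0.86 ± 0.13 from plate cells.

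Below 100 CPM, the held increases included the largest fold in the comparison. miR-150-5p, a marker of mature lymphocytes at chr19:49500832-49500853, had 70.6 and 47.7 CPM in filtered HDM and 53.6 and 59.7 CPM in unfiltered HDM, against 2.13 and 1.24 CPM in plate 1 cells, 4.29 and 4.62 CPM in plate 2 cells and 1.68 and 0.794 CPM in plate 3 cells. The plate values rest on between 2 and 18 counts, while the HDM libraries had between 15 and 187. The fitted log2 difference was 4.81 ± 0.24 (adjusted p = 1.0e-12), and every HDM library was above every plate library. miR-574-5p, from an intron of FAM114A1, had 58.1 and 63.0 CPM in filtered HDM and 80.8 and 51.7 CPM in unfiltered HDM, against 16.7 and 16.1 CPM in plate 1 cells, 11.4 and 11.4 CPM in plate 2 cells and 17.6 and 18.5 CPM in plate 3 cells, with log2 differences of 2.01, 2.53 and 1.86 from plates 1, 2 and 3. miR-574-5p consists mostly of a GT repeat (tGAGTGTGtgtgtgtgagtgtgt, seed in capitals). miR-150-5p, miR-574-5p, miR-95-3p and miR-423-5p were named after their values were seen.

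**Figure D1:**
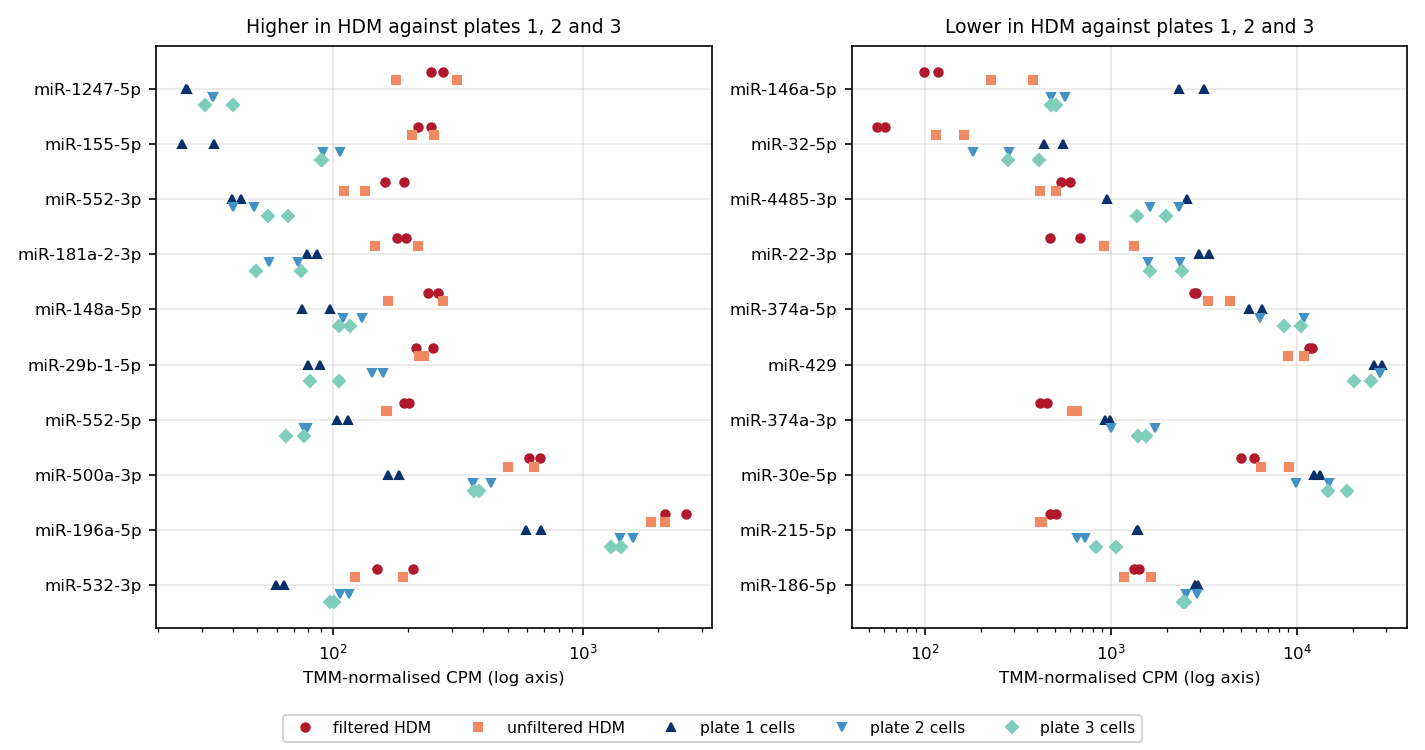
Level of 20 miRNAs in each library, as TMM-normalised CPM on a log axis. Shown are the 10 largest held differences upward (left) and downward (right) at 100 CPM or more among miRNAs whose HDM and plate libraries did not overlap. Each point is 1 library. The HDM points lie apart from the points of all 3 plate numbers because the miRNAs were chosen for this. Filtered HDM was lowest for miR-146a-5p and miR-32-5p.

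Downward, the largest held difference at 100 CPM or more was that of miR-146a-5p, which NF-κB induces and which represses IRAK1 and TRAF6. It had 117 and 99.4 CPM in filtered HDM and 383 and 227 CPM in unfiltered HDM, against 3181 and 2331 CPM in plate 1 cells, 565 and 479 CPM in plate 2 cells and 475 and 508 CPM in plate 3 cells. The plate numbers were far apart, yet the lowest plate value was still above the highest HDM value. Its log2 differences from plates 1, 2 and 3 were -3.89, -1.48 and -1.40, so the size against plate 1 was 14.8-fold and against plate 3 2.64-fold lower in HDM. Filtered HDM was below unfiltered HDM, with log2 differences from plate cells of -3.04 ± 0.22 for filtered and -1.48 ± 0.21 for unfiltered HDM, and in unfiltered HDM alone the call did not hold against every plate number.

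miR-32-5p, cut from an intron of TMEM245 at chr9:109046272-109046293, followed the same order of fractions. It had 61.2 and 55.3 CPM in filtered HDM and 162 and 115 CPM in unfiltered HDM, against 439.6 and 552 CPM in plate 1 cells, 283 and 182 CPM in plate 2 cells and 413 and 279 CPM in plate 3 cells, and its log2 difference was -1.88 ± 0.18 from plate cells (adjusted p = 3.6e-08) and -2.42, -1.33 and -1.89 from plates 1, 2 and 3. In unfiltered HDM alone the call against every plate number was again not held. miR-22-3p, cut from an exon of its host transcript MIR22HG, had 469 and 685 CPM in filtered HDM and 1324 and 915 CPM in unfiltered HDM, against 2992 and 3362 CPM in plate 1 cells, 2361 and 1583 CPM in plate 2 cells and 2411 and 1623 CPM in plate 3 cells. Both fractions were below all plates, and the log2 differences from plates 1, 2 and 3 were -1.97, -1.29 and -1.32.

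miRNAs of gut epithelium were among the held decreases. miR-429, a member of the miR-200 family that keeps epithelial cells epithelial by repressing ZEB1 and ZEB2, had 11575 and 11999 CPM in filtered HDM and 10984 and 8944 CPM in unfiltered HDM, against 25979 and 28604 CPM in plate 1 cells, 27996 and 28081 CPM in plate 2 cells and 24951 and 20262 CPM in plate 3 cells. HDM was 2.39-fold lower (log2 -1.25 ± 0.10, adjusted p = 4.1e-09), with log2 differences of -1.33, -1.37 and -1.06 from plates 1, 2 and 3. miR-215-5p, a p53-responsive miRNA of intestinal epithelium, had 471 and 510.1 CPM in filtered HDM and 428 and 418 CPM in unfiltered HDM, against 1404 and 1384 CPM in plate 1 cells, 661 and 730.0 CPM in plate 2 cells and 834 and 1063 CPM in plate 3 cells. Its difference was smallest against plate 2, with log2 values of -1.61, -0.61 and -1.06. miR-30e-5p, a member of the miR-30 family from an intron of NFYC, had 4989.6 and 5876 CPM in filtered HDM and 9059.9 and 6381 CPM in unfiltered HDM, against 13333 and 12408 CPM in plate 1 cells, 14970.1 and 9887 CPM in plate 2 cells and 18712 and 14712 CPM in plate 3 cells, with log2 differences of -0.99, -0.94 and -1.37. It differs by 1 base from miR-30a-5p.

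Both arms of miR-374a, from an intron of FTX in the X inactivation centre, were lower in HDM against every plate number. miR-374a-5p averaged 3337 ± 721 CPM in HDM and 8092 ± 2306 CPM in plate cells, and miR-374a-3p averaged 536 ± 119 CPM in HDM and 1264 ± 341 CPM in plate cells. Their log2 differences were -0.87, -1.39 and -1.54 and -0.86, -1.37 and -1.49 against plates 1, 2 and 3. miR-186-5p, from an intron of ZRANB2, averaged 1393 ± 192 CPM in HDM and 2692 ± 215 CPM in plate cells with log2 differences of -1.04, -0.96 and -0.82. miR-4485-3p, an entry at chr11:10508277-10508296 in an exon of MTRNR2L8, a nuclear copy of mitochondrial 16S rRNA sequence, averaged 515 ± 77.7 CPM in HDM and 1803 ± 595 CPM in plate cells with log2 differences of -1.79, -1.96 and -1.73. Its reads cannot be told from fragments of the mitochondrial RNA. Among these 10 decreases, 7 held against every plate number in both fractions and 3, those of miR-146a-5p, miR-32-5p and miR-374a-3p, in filtered HDM alone. Among the 10 increases, 6 held in both fractions and 4, those of miR-29b-1-5p, miR-500a-3p, miR-196a-5p and miR-532-3p, in filtered HDM alone. Whether the fractions differ in this was not tested. Under the alternatives, 6 of these 20 miRNAs lost a call against 1 or more plate numbers in at least 1 setting: the increases of miR-29b-1-5p, miR-196a-5p, miR-532-3p, miR-500a-3p and miR-552-5p and the decrease of miR-215-5p. miR-552-5p lost its call against plate 1 without plate 1 of HF6, and miR-215-5p its call against plate 2 without plate 2 of HF7 or with the fractions summed. miR-29b-1-5p lost its call against plate 2 without plate 2 of HF6, miR-196a-5p without the filtered HF6 library, and both with the pellets in the fit.

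Other held decreases of abundant miRNAs lay outside the set above because they were smaller or because their libraries overlapped. That of miR-142-5p, at log2 -1.17 ± 0.15 from plate cells, was not smaller than all of that set, but its libraries overlapped. The decreases of miR-194-5p, miR-200a-3p and miR-24-3p were smaller. miR-194-5p averaged 43384 ± 7460.4 CPM in HDM and 80686 ± 4062 CPM in plate cells, miR-200a-3p averaged 21641 ± 3201 CPM in HDM and 39458 ± 7855 CPM in plate cells, and miR-24-3p averaged 7095 ± 1442 CPM in HDM and 12688 ± 3951 CPM in plate cells. The log2 differences from plates 1, 2 and 3 were -0.87, -0.89 and -0.93 for miR-194-5p, -0.51, -1.03 and -1.002 for miR-200a-3p and -1.297, -0.62 and -0.46 for miR-24-3p. The libraries of miR-24-3p overlapped, and neither miR-24-3p nor miR-200a-3p held with scaling by total counts alone. miR-141-3p, also of the miR-200 family, held its call, and its libraries overlapped too, with 1097 and 1460.4 CPM in filtered HDM and 4092 and 2773 CPM in unfiltered HDM, against 9303 and 9886 CPM in plate 1 cells, 4268 and 2708 CPM in plate 2 cells and 7039 and 4734 CPM in plate 3 cells. miR-141-3p was named after its values were seen.

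**Figure D2:**
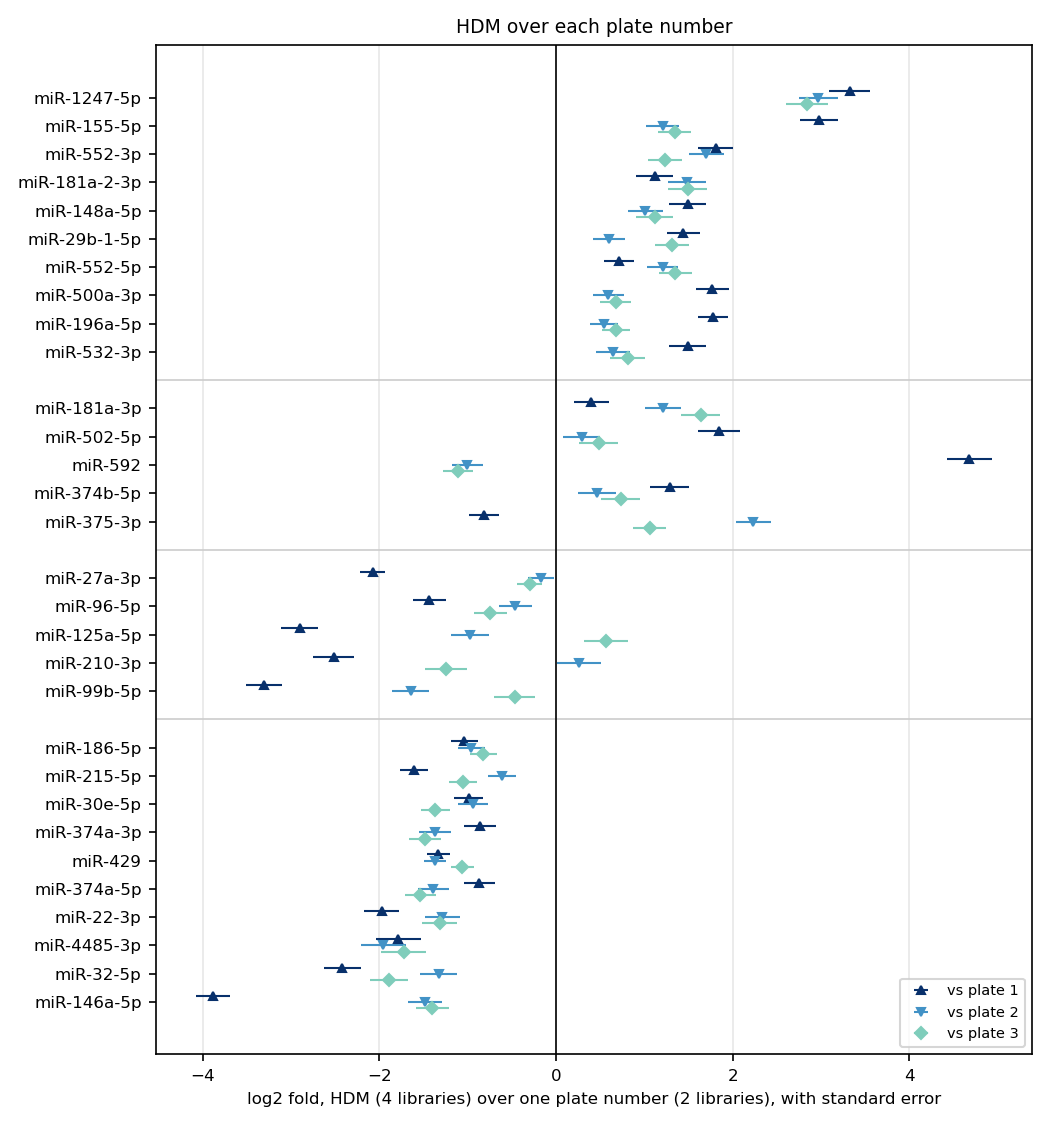
Log2 difference of the 4 HDM libraries from the 2 libraries of each plate number, with its standard error, for the held miRNAs (top and bottom blocks) and for the largest differences that did not hold (middle blocks). In the outer blocks the 3 points of a miRNA lie on the same side of 0 because a held call requires it. In the middle blocks the points of miR-592 and miR-375-3p lie on both sides.

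Many differences depended on which plate the HDM libraries were set against. For 18 miRNAs HDM was called in opposite directions against different plate numbers: 11 were lower than plate 1 and higher than another plate, 6 higher than plate 1 and lower than another, and 1 differed in direction between plates 2 and 3. miR-592, from an intron of GRM8, had 234 and 221 CPM in filtered HDM and 165 and 191 CPM in unfiltered HDM, against 7.59 and 7.86 CPM in plate 1 cells, 339 and 461 CPM in plate 2 cells and 403 and 456 CPM in plate 3 cells. HDM was far above plate 1 and below plates 2 and 3, with log2 differences of 4.68, -1.004 and -1.11. Its difference from the plates together, 0.86 ± 0.15 (adjusted p = 7.8e-05), averages these 3 log values, turned to -0.45 in the fit with 2 groups only, and is positive although the mean CPM was 203 in HDM and 279 in plate cells. miR-375-3p, a miRNA of endocrine and secretory gut cells, had the opposite order, with 2323 and 2551 CPM in filtered HDM and 2202 and 2220.0 CPM in unfiltered HDM, against 4406 and 3762 CPM in plate 1 cells, 458 and 528 CPM in plate 2 cells and 838 and 1383 CPM in plate 3 cells. HDM was between plate 1 and plates 2 and 3, with log2 differences of -0.82, 2.23 and 1.06.

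miR-1246, whose entry matches a fragment of U2 small nuclear RNA and which has been reported in extracellular particles, was lower than plate 1 and higher than plates 2 and 3. It had 675 and 562 CPM in filtered HDM and 598 and 481 CPM in unfiltered HDM, against 1503 and 2736 CPM in plate 1 cells, 192 and 253 CPM in plate 2 cells and 208 and 365 CPM in plate 3 cells, and log2 differences of -1.86, 1.39 and 1.01 (adjusted p = 7.7e-07, 1.7e-04 and 0.0031). Against the plates together it was not called, at 0.18 ± 0.17 (adjusted p = 0.44). miR-135b-5p, which targets APC, averaged 825 CPM in HDM, against 1983, 412 and 562 CPM in plate 1, 2 and 3 cells. miR-23a-3p averaged 7753 CPM in HDM, against 12192, 4873 and 5205 CPM in plate 1, 2 and 3 cells. Both were called lower than plate 1 and higher than plates 2 and 3, with log2 differences of -1.26, 1.01 and 0.57 and -0.65, 0.67 and 0.58.

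The other large differences that did not hold were called against some plate numbers only. miR-99b-5p and miR-125a-5p, from the cluster in an intron of SPACA6, averaged 27.1 and 65.6 CPM in HDM. In cells of plates 1, 2 and 3, miR-99b-5p averaged 280.2, 88.5 and 39.2 CPM, and miR-125a-5p 513, 134 and 48.0 CPM. Neither was called against plate 3, at -0.47 ± 0.24 and 0.57 ± 0.25 (adjusted p = 0.13 and 0.083). miR-210-3p, which hypoxia-inducible factor induces, averaged 135 CPM in HDM, against 737, 107 and 303 CPM in plate 1, 2 and 3 cells, and was lower than plates 1 and 3 but not called against plate 2, at 0.27 ± 0.25 (adjusted p = 0.43). miR-27a-3p was called lower against plate 1 alone and averaged 2488 CPM in HDM, against 10467, 2798 and 3055 CPM in plate 1, 2 and 3 cells. miR-96-5p, of a cluster known from sensory organs, averaged 531 CPM in HDM, against 1408, 717 and 875 CPM in plate 1, 2 and 3 cells and was not called against plate 2. Of the increases, miR-181a-3p was not called against plate 1 (log2 0.40 ± 0.20), miR-374b-5p not against plate 2 (0.46 ± 0.21), and miR-502-5p against neither plate 2 nor plate 3 (0.29 ± 0.21 and 0.48 ± 0.22).

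Of the 6 abundant or fixed miRNAs that follow, none held a call against every plate number. miR-21-5p, which is raised in many carcinomas, averaged 136838 ± 20055 CPM in HDM and 165523 ± 32056 CPM in plate cells and was lower against plate 1 (log2 -0.58 ± 0.12), with -0.17 ± 0.12 against plate 2 and -0.01 ± 0.12 against plate 3, neither of them called. miR-192-5p, the liver and gut miRNA of the miR-194 cluster, averaged 39618 ± 5339 CPM in HDM and 49557 ± 3796 CPM in plate cells and was called lower against plates 1 and 3 but not plate 2. miR-200c-3p averaged 35790.0 CPM in HDM, against 42508, 18557 and 22795 CPM in plate 1, 2 and 3 cells, and was called higher than plates 2 and 3 only. let-7a-5p averaged 25576 ± 5401 CPM in HDM and 18071 ± 1913 CPM in plate cells and was called higher than plates 2 and 3, with an adjusted p of 0.056 against plate 1. miR-125b-5p and miR-4521 were called against no plate number, with log2 differences from plate cells of 0.12 ± 0.12 and 0.10 ± 0.15. miR-100-5p did not pass the filter on low counts and was not tested.

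Families and clusters moved unevenly. Unless a plate number is named, their counts below are of calls against plate cells. These stand beside 22.4% higher, 20.9% lower, 5.17% held upward and 6.51% held downward over all miRNAs tested. Against plates 1, 2 and 3, 20.1%, 14.4% and 16.5% of all miRNAs were higher, and 113, 90 and 89 of 522 were lower. In the miR-200 family, 6 of 9 tested members were lower in HDM than in plate cells and 1, miR-200c-3p, was higher, with 3 of the 6 held against every plate number and a median log2 difference of -0.63, against -0.02 over all miRNAs tested. The median was -0.51, -0.50 and -0.35 against plates 1, 2 and 3. miR-200b-3p and miR-429 share a seed: miR-200b-3p averaged 69964 ± 6867 CPM in HDM and 82398 ± 3284 CPM in plate cells, a log2 difference of -0.24 ± 0.08 called against plate 3 alone, while miR-429 held against all. In the group of miR-192 with miR-194 and miR-215, 4 of 6 were lower and none higher, with 2 held (miR-194-5p and miR-215-5p) and a median of -0.61. In the miR-30 family, 5 of 8 were lower and none higher. miR-30e-5p was the 1 member that held, and the median was -0.37. The family's decrease was largest against plate 1: 6 members were lower than plate 1, 3 than plate 2 and 2 than plate 3. The medians were -0.86, -0.32 and -0.25. miR-30d-5p averaged 16827 ± 798 CPM in HDM and 20274 ± 1522 CPM in plate cells and miR-30c-5p 5656 ± 503 CPM in HDM and 5501 ± 957 CPM in plate cells, the second with no call at any plate number.

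The let-7 family had 4 of 9 members higher and none lower, with a median of 0.14, and let-7b-5p alone held. Against plate 1, 1 member was higher and 1 lower. Against plates 2 and 3, 3 and 5 were higher and none lower. The medians were 0.01, 0.25 and 0.37 against plates 1, 2 and 3. Against plate cells, the median was 0.35 in filtered and -0.07 in unfiltered HDM. Under total-count scaling 4 members held upward. let-7f-5p and let-7g-5p, which had levels of 36531 and 23312 CPM in HDM, against 30031 and 21562 CPM in plate cells, differed by 0.27 ± 0.09 and 0.11 ± 0.09 on the log2 scale. In the CLCN5 cluster, 11 of 16 members were higher and none lower, but this rested on plate 1: 14 were higher than plate 1, 2 than plate 2 and 3 than plate 3. In the other direction, miR-362-3p was lower than plate 3 (log2 -0.55). The medians of the cluster were 1.42, 0.18 and 0.37 against plates 1, 2 and 3. Of its abundant members, miR-362-5p averaged 1605 CPM in HDM, against 616, 1191 and 1236 CPM in plate 1, 2 and 3 cells, and miR-660-5p averaged 1111 CPM in HDM, against 461, 955 and 1014 CPM in plate 1, 2 and 3 cells. In the miR-181 family, 5 of 8 members were higher and 1, miR-181c-5p, was lower (log2 -0.51 ± 0.14). Of the 8, 2 were higher than plate 1, 7 higher than plate 2 and 5 higher than plate 3. Against plates 1 and 3, 1 was lower, and against plate 2 none. Only miR-181a-2-3p held. miR-181a-5p averaged 4649.8 CPM in HDM, against 5553, 2321 and 2749 CPM in plate 1, 2 and 3 cells. Of the miRNAs made without Drosha, 4 of 9 were higher, all of the miR-320 family. miR-320a-3p held against every plate number, while miR-320b averaged 309.7 CPM in HDM, against 278, 153 and 179.5 CPM in plate 1, 2 and 3 cells and miR-484 633 CPM in HDM, against 361, 732 and 639 CPM in plate 1, 2 and 3 cells. Members of the miR-320 family differ from each other by few bases, and reads may be split among them.

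In the miR-17-92 cluster and its paralogs, 7 of 19 members were higher and 1 lower, with miR-25-5p held upward and a median of 0.12. Against plate 1, 8 were higher and none lower. Against plate 2 there were 2 higher and 3 lower, and against plate 3 there were 3 higher and 2 lower. miR-92a-3p averaged 35239 ± 4937 CPM in HDM and 27200.1 ± 3922 CPM in plate cells and was called against plate 1 alone. The miR-29 family had 3 of 7 higher and 2 lower, with miR-29b-1-5p held upward and miR-29b-3p downward. The miR-23, miR-27 and miR-24 clusters had 5 of 11 higher and 3 lower, with miR-23b-3p held upward and miR-24-3p and miR-24-2-5p downward. The medians of these clusters were -0.27, 0.25 and 0.21 against plates 1, 2 and 3. The polycistrons of miR-100, miR-99 and miR-125 had 3 of 8 lower and none higher, with miR-99a-5p held. Of these 8, 5 were lower than plate 1 and 3 lower than plate 2, while 1 was lower and 1 higher than plate 3. Their medians were -1.13, -0.37 and 0.39 against plates 1, 2 and 3. The miR-130 and miR-301 family had 2 of 8 higher and 3 lower, with miR-301b-3p held downward. Its medians were 0.22, -0.88 and -0.53 against plates 1, 2 and 3. In the miR-148 and miR-152 family, 3 of 5 were higher and 2 lower, with miR-148a-5p held upward and miR-148b-5p downward. The miR-15 and miR-16 family had 2 of 5 lower, with miR-16-5p held. The cluster of miR-96, miR-182 and miR-183 (1 of 6 higher, 2 lower), miR-221 and miR-222 (2 of 4 higher, 1 lower), the miR-26 family (2 of 5 higher) and the hypoxia-linked miR-210 arms (1 of 2 lower) had no member that held. With libraries scaled by total counts alone, 2 members of miR-221 and miR-222 and 1 of the miR-26 family held upward, while miR-29b-3p, miR-24-3p, miR-24-2-5p, miR-99a-5p, miR-301b-3p and miR-16-5p no longer held downward. The median of the miR-26 family was 0.01 and turned to -0.02 with RLE size factors. Among 22 tested entries that overlap other classes of RNA, 4 were higher and 4 lower, close to the shares over all miRNAs. Decreases held for both miR-4485 arms, miR-12135 and miR-4284, of which miR-4485-5p and miR-12135 no longer held with total counts.

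**Figure D3:**
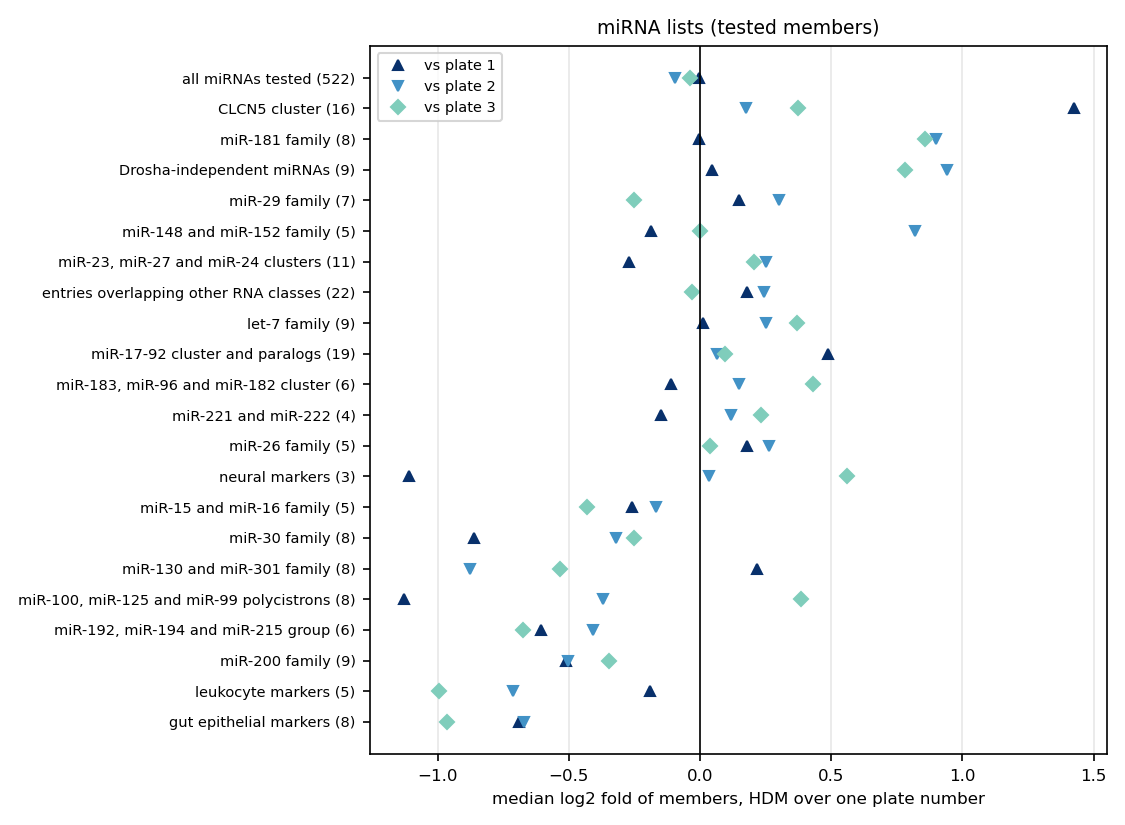
Median log2 difference of HDM from each plate number over the tested members of each list, with the number of members in brackets. Against plate 1 the CLCN5 cluster had a median of 1.42 and the miR-181 family one near 0, while against plates 2 and 3 the miR-181 family had the higher medians, and the gut epithelial markers lay below 0 against all 3.

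The gut epithelial markers, looked at because the label names a colorectal line, were abundant in every library. They cannot tell this line from other gut epithelial cells. Their summed level was 195747 to 244580 CPM in HDM, against 292438 to 332582 CPM in plate cells. Of the 8 markers, 7 were lower in HDM and 5 of these held (4 with scaling by total counts alone), with miR-200c-3p the 1 that was higher. In bulk RNA, fewer cells of a type and less RNA per cell cannot be told apart. Of the leukocyte markers, miR-155-5p and miR-150-5p were higher and held, miR-146a-5p and miR-142-5p were lower and held, and miR-142-3p was lower but not against plate 1. The summed level of all 6 was 1627 to 3376 CPM in HDM and 3131 to 6339 CPM in plate cells, and what part other cells have in it was not tested. Both endothelial markers, the arms of miR-126 from an intron of EGFL7, held downward, with miR-126-3p at 16.7 ± 7.67 CPM in HDM and 64.4 ± 26.6 CPM in plate cells. Their summed level was 20.8 to 32.6 CPM in HDM, against 56.2 to 147.9 CPM in plate cells. In unfiltered HDM of HF7 both arms stood at 11.9 CPM, the level of 3 counts there. miR-126-5p was also low in the other HDM libraries, at 8.68 and 6.47 CPM in filtered HDM and 4.60 CPM in unfiltered HDM of HF6. The 4 erythroid markers summed to at most 3.02 CPM in HDM and to between 6.62 and 16.7 CPM in plate cells. miR-451a had 3 to 5 counts in 3 HDM libraries and none in unfiltered HDM of HF7, against 8 to 23 counts in plate libraries, and was called lower against plates 2 and 3 only. miR-144-5p was called lower against every plate number from at most 2 counts in any HDM library, and this no longer held with scaling by total counts alone. Both entries passed the filter on low counts through plate libraries only, so these calls give no separate support for a decrease. In unfiltered HDM of HF7 neither had reads. There 3 counts are 11.9 CPM, above every plate value of miR-451a (at most 6.71 CPM) and of miR-144-5p (at most 9.06 CPM). The stromal markers summed to at most 0.588 CPM in HDM and 3.31 CPM in plate cells, and the liver marker miR-122-5p was at most 0.588 CPM in HDM and 0.827 CPM in plate cells. Muscle markers summed to 3.98 to 12.6 CPM in HDM and 7.16 to 21.9 CPM in plate cells. Neural markers summed to 525 to 772 CPM in HDM and 436 to 636 CPM in plate cells, mostly miR-128-3p.

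Both arms of a hairpin are cut from the same precursor, so their ratio does not depend on how much of that precursor was transcribed. Arms were paired here by mature name. Where an arm comes from several places in the genome, the ratio may mix precursors and does not have this property. For 138 hairpins the log2 ratio of the arm that was scarcer in the cell pellets to the other arm was compared with limma. It differed between HDM and plate cells for 47 hairpins (34.1%), higher in HDM for 28 (20.3%) and lower for 19 (13.8%). There were 48 calls against plate 1 (34.8%), 23 against plate 2 (16.7%) and 24 against plate 3 (17.4%). The call held against every plate number for 9 hairpins (6.52%), 5 higher and 4 lower. These held calls changed with single libraries: none were left without the filtered HF6 library or without plate 2 of HF6, 5 without the filtered HF7 library, 3 without plate 3 of HF6 and 16 without the unfiltered HF6 library. Without the filtered HF6 library the call against plate cells was made for 27 hairpins.

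In miR-32 the 3p arm was the more abundant one in filtered HDM and the 5p arm in unfiltered HDM and in plate cells. The share of miR-32-3p among reads of both arms was 72.3% and 71.3% in filtered HDM and 44.4% and 49.1% in unfiltered HDM, against 22.7% and 19.8% in plate 1 cells, 36.0% and 48.3% in plate 2 cells and 20.4% and 29.8% in plate 3 cells. Filtered HDM was highest, and unfiltered HDM overlapped plate 2. The log2 ratio differed by 1.90 ± 0.18 from plate cells (adjusted p = 7.7e-07) and by 2.47, 1.04 and 2.18 from plates 1, 2 and 3. The sequence of the arm that was relatively higher in HDM differs from miR-32-5p in its seed.
miR-32-3p: cAATTTAGtgtgtgtgatattt
miR-32-5p: tATTGCACattactaagttgca
In miR-338, from an intron of AATK, the share of miR-338-5p was 80.4% and 74.8% in filtered HDM and 65.9% and 77.8% in unfiltered HDM, against 43.7% and 41.9% in plate 1 cells, 53.0% and 59.1% in plate 2 cells and 47.8% and 51.8% in plate 3 cells. All HDM libraries were above all plates, and the log2 ratio differed by 1.98, 1.21 and 1.58 from plates 1, 2 and 3. miR-335, from an intron of the imprinted gene MEST, had 52.6% and 49.5% of its reads on miR-335-3p in filtered HDM and 38.7% and 45.7% in unfiltered HDM, against 27.7% to 35.2% in plate cells.

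miR-194-3p and miR-99a-3p, which are scarce arms, also held upward in share, with log2 ratios higher by 1.18 ± 0.19 and 1.304 ± 0.31. The miR-194-5p arm comes from 2 places in the genome, so its hairpins cannot be told apart. Downward, the share of miR-374b-3p was 1.89% and 2.16% in filtered HDM and 1.79% and 2.44% in unfiltered HDM, against 5.48% and 7.21% in plate 1 cells, 9.38% and 3.32% in plate 2 cells and 5.81% and 5.55% in plate 3 cells. Its log2 ratio differed by -1.56 ± 0.24 from plate cells and by -1.66, -1.49 and -1.51 from plates 1, 2 and 3. let-7a-3p, miR-362-3p and miR-330-5p held downward as well, with -0.86 ± 0.13, -0.87 ± 0.16 and -1.18 ± 0.22. The first locations given for let-7a-5p and let-7a-3p lie on chromosomes 11 and 22, so this ratio may compare different precursors. The largest changes that did not hold upward were those of miR-135b (1.79 ± 0.28, not called against plate 3), miR-29c (1.55 ± 0.31, not against plate 2) and miR-3613 (1.33 ± 0.41, called against plate 3 alone). Downward they were those of miR-556 (-1.77 ± 0.45, not against plate 2), and of miR-148b and miR-215 (-1.22 ± 0.24 and -1.20 ± 0.44), both called against plate 1 alone.

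**Figure D4:**
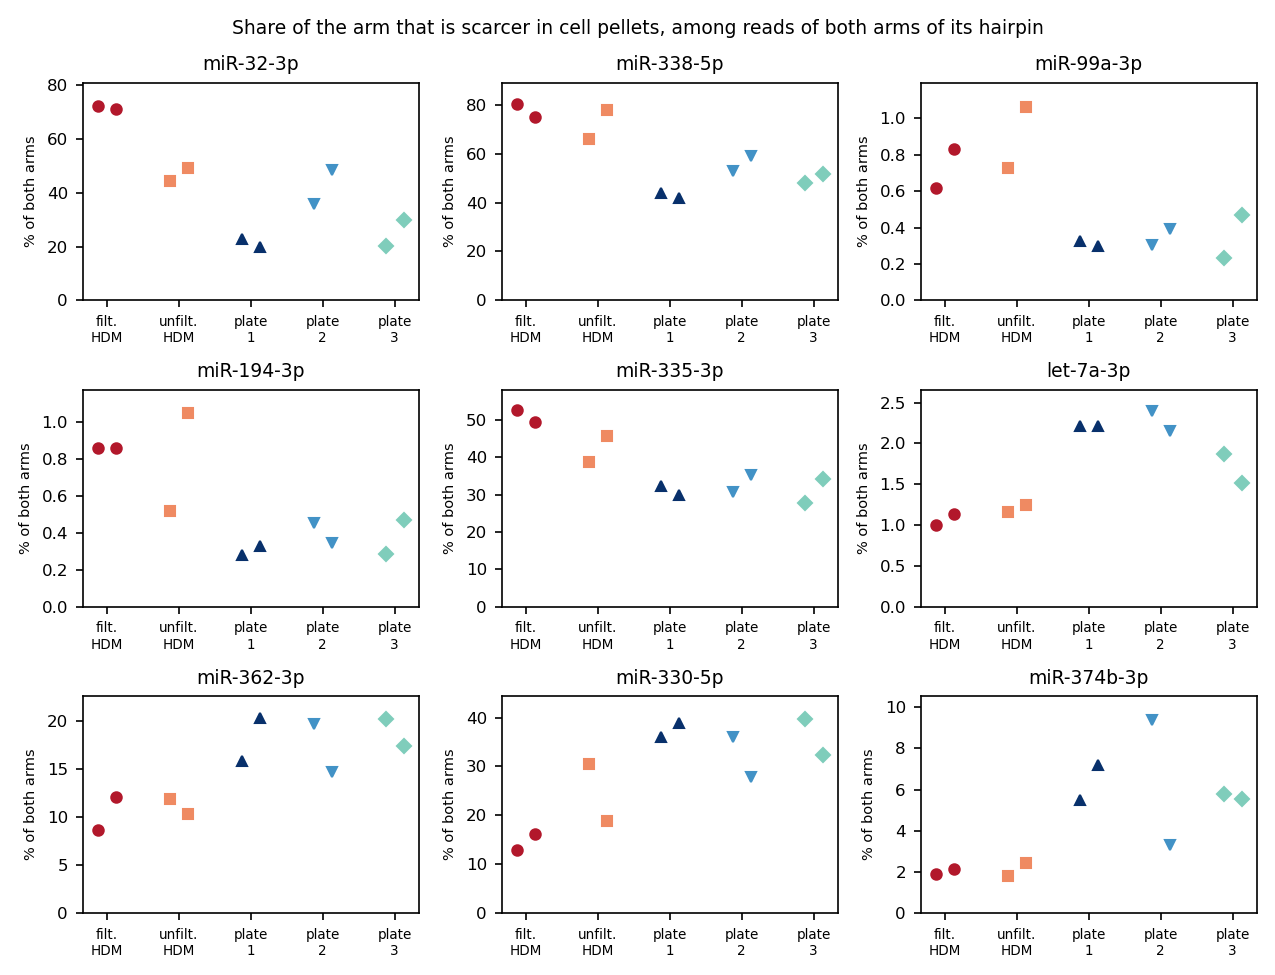
Share of the arm that is scarcer in cell pellets among the reads of both arms, in each library, for the 9 hairpins whose arm ratio differed against every plate number. The 5 upper hairpins (miR-32 to miR-335) have higher shares in HDM and the other 4 lower ones, and the axes start at 0.

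Members of a seed family did not always go together. Of 58 seeds with at least 2 tested miRNAs, 11 had members called in both directions against plate cells, and 1 had members that held in both directions, miR-326 upward and miR-330-5p downward. miR-32-5p held downward, while miR-92a-3p, miR-25-3p and miR-92b-3p, which share its seed, were called higher against the plates together. None of these 3 increases held against every plate number, and miR-92a-3p was called against plate 1 alone. miR-374a-5p held downward while miR-374b-5p, which has the same seed, averaged 2756 ± 453 CPM in HDM and 1601 ± 578 CPM in plate cells and was called higher against plates 1 and 3. The 2 sequences, given above, differ at T1A and A16C, counted from the 5′ end of miR-374a-5p. miR-23b-3p held upward, and miR-23a-3p, which differs at A19T and is 2 bases shorter, changed direction with the plate number.

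Base composition moved with the difference. Across the 522 miRNAs, the log2 difference of HDM from plate cells had a Pearson r of 0.25 and a Spearman rho of 0.28 with the GC content of the mature sequence. These values were 0.27 and 0.29 against plate 1, 0.18 and 0.22 against plate 2, and 0.17 and 0.24 against plate 3. The miRNAs share the same 10 libraries and are not independent, so this is a description. The 68 miRNAs under 35% GC had a median of -0.50, with 3 higher, 24 lower and 8 decreases that held, while the 62 at 65% or more had a median of 0.17, with 13 higher and 8 lower. In that high-GC range the median was 0.53, 0.05 and 0.04 against plates 1, 2 and 3, and in the range under 35% it was -0.43, -0.55 and -0.60. The median GC content was 54.5% in the 27 miRNAs held upward and 40.9% in the 34 held downward, against 47.8% over all. The part of GC content in the calls was not tested. The motif GGAG, which other work has linked to sorting into vesicles, was in 4 of the 27, in 0 of the 34 and in 42 of all 522 (8.05%). The motif CCCT was in 4 of the 27, in 1 of the 34 and in 49 of all 522 (9.39%). Both were searched in the mature strand only.

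**Figure D5:**
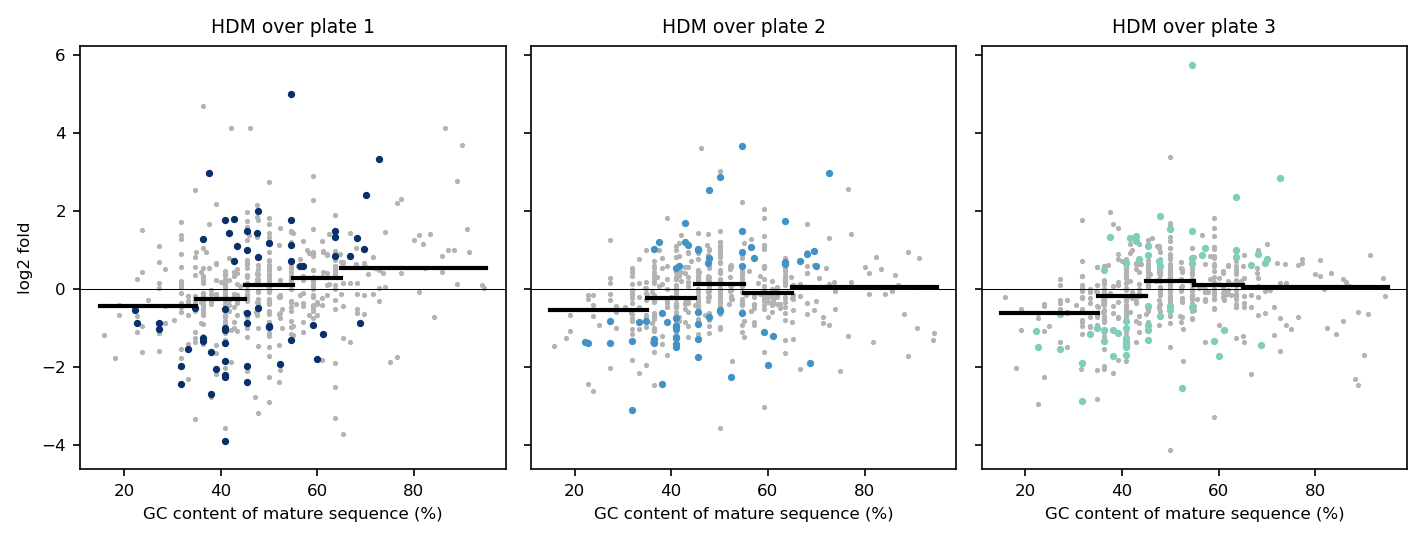
Log2 difference of HDM from each plate number against the GC content of the mature miRNA, with 1 point per miRNA tested. Coloured points are the 61 miRNAs held against every plate number, grey points the others, and black bars the medians of 5 ranges of GC content, which lie lowest under 35% GC against all 3 plates.

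The test of whether the difference of HDM from plate cells itself differed between HF6 and HF7 gave 0 calls over 522 miRNAs in edgeR, with 22 at an unadjusted p under 0.05 and a lowest adjusted p of 0.688. It also called 0 with total counts as the only scaling and 0 with a stricter filter. With 2 libraries per group and 1 per HF number, this does not show that the difference was the same in both.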

How the data were processed

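Per the labels' protocols, RNA came from the miRNeasy kit and libraries from the NEXTflex small RNA kit, and the material of all libraries is called extracellular. The submitters' processing notes list cutadapt 2.10, Bowtie 1.3.1, FastQC and the build GRCh38, without roles. The deposited values are expected counts per mature miRNA, not normalised, in 1 table of 1619 entries and 14 library columns. In 143 entries a value is fractional. The rule behind the fractions, the treatment of reads that match several entries, and any filters are not given in the sources used here. The values were rounded to whole counts. The table also gives each entry's sequence and location.

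The 10 libraries were fitted in edgeR 4.0.16 (quasi-likelihood, TMM, filterByExpr by group) with 5 groups: filtered HDM, unfiltered HDM and plates 1, 2 and 3, with HF6 and HF7 as replicates. After the filter, 522 miRNAs with 99.96% of all counts were tested. There were 5 residual degrees of freedom, the common coefficient of biological variation was 0.151, and the spread is pooled over all 5 groups. Contrasts set the mean of both HDM groups, and each HDM group alone, against the mean of the plates and against each plate number, with Benjamini-Hochberg adjustment within a contrast. Arm ratios used limma 3.58.1 with trend on log2 ratios of counts plus 0.5, and each hairpin's scarcer arm was taken from the 2 cell pellets, which are outside the comparison. The fits, with DESeq2 1.42.0 and the other alternatives, were run in R 4.3.3 and tested on simulated data.

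The miRNAs named are the 10 largest held differences in each direction with at least 100 CPM in a group and no overlap, the 5 largest in each direction that did not hold, 12 fixed names, the 4 most abundant members of each list and the 5 largest arm changes in each direction. Of the lists, 27 were described, by counts and medians and with no test. Members, lists and fixed names were chosen with earlier results of these data known. Names that the text says were chosen after their values were seen lie outside this rule, as do the miRNAs given for opposite calls, seed families and held list members.

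Same-numbered HF libraries did not deviate together: over 10 pairs of groups the correlation of deviations was between -0.218 and 0.223, and 3 pairs were above 0.1. The HF number was therefore not used as a block. No 2 libraries of a group were copies, with a chi-square per degree of freedom between 11.2 and 83.4. Host genes come from GENCODE release 29 (GRCh38), in which 1575 of 1619 locations lie in a miRNA gene.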

Additional observations from a re-analysis of the deposited data

Results flagged for a closer look

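In groups of 4 HDM or 6 plate libraries, 7 of 244 groups looked at had a library far from the others by Dixon's ratio (gap to the nearest library over the whole range), where chance gives about 5%. Unfiltered HDM of HF7, the shallowest library at 205747 counts, was the distant one in 5 of them. These were miR-502-5p (ratio 0.847, with 113 and 116 CPM in filtered HDM and 123.03 and 71.6 CPM in unfiltered HDM), miR-183-3p (0.878, with 74.7 and 75.3 CPM in filtered HDM and 67.8 and 31.8 CPM in unfiltered HDM), miR-26a-5p (0.840, with 15503 and 15212 CPM in filtered HDM and 15451 and 13769 CPM in unfiltered HDM), miR-451a (0.846, with 0 counts in that library) and the miR-135b arm ratio (0.910, with a miR-135b-3p share of 4.62% there and 3.40% to 3.52% in the other HDM libraries). miR-148a-3p was lowest in filtered HDM of HF6 (0.946, with 8282 CPM there and 9962 to 10067 CPM in the other HDM libraries). miR-30c-5p was highest in plate 1 cells of HF6 (0.782, with 7423 CPM there and 4782 to 5263 CPM in the other plate libraries).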

How the results depend on the processing

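Counts of calls over both directions stayed within 1.5 times of the reported ones under DESeq2, RLE size factors, scaling by total counts alone, no filter on low counts, a minimum of 50 counts in 2 libraries, limma-voom and fractions summed per HF number. By direction, scaling by total counts moved the higher calls to 52 in place of 27 held, to 165 in place of 105 against plate 1 and to 122 in place of 68 for unfiltered HDM. Of the 61 held miRNAs, 55 were also held under DESeq2, 60 with RLE, 50 with total counts, 52 with no filter, 56 with the 50-count minimum, 55 with limma-voom and 53 with fractions summed. With the 2 cell pellets in the fit, the counts were 99 against plate 3, 37 held, 137 for filtered HDM and 54 for unfiltered HDM. With 2 groups only, a fit chosen after seeing the data, HDM against plate cells gave 112 calls, and miR-592 reversed to -0.45. The miR-338 arm ratio reversed to -1.59 when the scarcer arm was taken from the 10 libraries, since the arms then swap places by definition. The replicate block (HF number as a term), which the data do not call for, gave 220 calls against plate cells, 216, 173 and 167 against plates 1, 2 and 3, 64 held, 205 for filtered and 130 for unfiltered HDM, and 47 arm ratios with 9 held. Leaving out 1 library at a time gave 146 to 223 calls against plate cells, 153 to 242 against plate 1, 106 to 176 against plate 2, 116 to 183 against plate 3, 42 to 60 held, 120 to 214 for filtered HDM, 54 to 141 for unfiltered HDM, 27 to 52 arm ratios and 0 to 16 held arm ratios. Of 4430 values for single miRNAs and hairpins with 1 library left out, 4116 stayed on the same side of the threshold and none reversed, and under the other alternatives 3970 of 4313 stayed. The cause of these changes was not tested. Depth limits unfiltered HDM of HF7, where 3 counts are 11.9 CPM. Group sizes of 2 libraries per plate number, the unstated origin of the replicates, the unmeasured medium background and the absence of a spike-in limit all folds.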

Other observations

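Further increases held against every plate number and were named after their values were seen. miR-135b-3p, the scarce arm of a miRNA raised in colorectal tumours, averaged 32.0 CPM in HDM, against 13.8, 4.20 and 10.9 CPM in plate 1, 2 and 3 cells, while its partner miR-135b-5p changed direction with the plate number. miR-326 averaged 84.3 CPM in HDM, against 15.7, 56.7 and 49.7 CPM in plate 1, 2 and 3 cells. Both arms of miR-671 held, with miR-671-5p at 176 to 255 CPM in HDM and 88.5 to 133 CPM in plate cells and miR-671-3p at 40.2 to 48.8 CPM in HDM and 20.7 to 29.1 CPM in plate cells, but miR-671-3p no longer held with RLE size factors. miR-629-5p held with log2 differences of 1.45, 0.68 and 0.71 from plates 1, 2 and 3, although its libraries overlapped, with 199 to 374 CPM in HDM and 105 to 218 CPM in plate cells. miR-296-3p, miR-1180-3p, miR-224-3p, miR-25-5p and miR-4446-3p held too, with log2 differences from plate cells of 1.04 ± 0.16, 0.85 ± 0.14, 0.997 ± 0.16, 0.81 ± 0.13 and 1.81 ± 0.36.

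Further decreases held as well. miR-425-5p was at 5110.4 ± 922 CPM in HDM and 7949 ± 971 CPM in plate cells, and miR-16-5p, of the cell cycle-linked miR-15 family, at 9487 ± 1483 CPM in HDM and 13807 ± 1780.1 CPM in plate cells. miR-16-5p overlapped the plates, and its log2 differences were -0.61, -0.58 and -0.43 from plates 1, 2 and 3. Neither miR-425-5p nor miR-16-5p held when libraries were scaled by total count alone. miR-340-5p was at 90.2 to 126 CPM in HDM and 149.7 to 218 CPM in plate cells. miR-148b-5p averaged 15.5 CPM in HDM, against 75.3, 37.7 and 40.3 CPM in plate 1, 2 and 3 cells, in the opposite direction to miR-148a-5p. miR-147b-3p and miR-548o-3p were scarce and held in both fractions, with miR-147b-3p at 1.89 to 8.83 CPM in HDM and 18.2 to 36.2 CPM in plate cells and miR-548o-3p at 3.98 to 9.21 CPM in HDM and 15.7 to 27.7 CPM in plate cells. In unfiltered HDM of HF7 both rest on fewer than 3 counts, which are 11.9 CPM there, so the calls in unfiltered HDM alone are weak.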
